A study of Mus musculus with 6 samples.

Results

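The mitochondrial ribosomal protein genes are the nuclear genes, named Mrpl for the large and Mrps for the small subunit, that encode the proteins of the ribosome inside mitochondria. The members were all array rows whose single gene symbol had the form Mrpl or Mrps followed by a number, without pseudogenes, and they numbered 74 of the 30701 genes tested. The large subunit contributed 46 genes and the small subunit 28, each with 1 row. The arrays came from mouse CD4+ T cells, sorted as a naive population (CD25-, CD62L+, CD44-) and stimulated through CD3 and CD28 for 3 days while being driven to the TH17 fate, that of helper cells that secrete IL-17. The medium of both groups held 10% serum, 2 interleukins (IL-6 and IL-23, 20 ng/ml of either), 1.25 ng/ml TGF-beta and 10 ug/ml of blocking antibodies to IL-4, IL-12 and IFN-gamma. Glutamine was present in 3 cultures and absent from 3, and the comparison asks how its absence alters the transcripts of these cells. The labels give no mouse strain, genotype or age, no animal for each culture and no batch, so p-values measure the spread between arrays labelled as biological replicates, which may be partly technical.

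The mitochondrial ribosome translates the few mRNAs that the mitochondrial genome encodes, all of them for core subunits of the respiratory chain and of ATP synthase. Its ribosomal RNAs come from mitochondrial DNA, while its proteins are made in the cytosol from nuclear genes and imported. Some of these proteins have counterparts in bacterial ribosomes, and others exist only in mitochondrial ribosomes. T cells enlarge their mitochondria after activation, and glutamine feeds the TCA cycle that supplies the respiratory chain.

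The median over all rows of an array was 4.18 to 4.21 log2 in the glutamine group and 4.33 to 4.38 log2 in the other, and 695 to 887 rows per array exceeded 16. Because the scale is therefore uncertain, all changes are log2 differences and none is called a fold. Of the 10 T helper markers, 8 were measured and all stood above the median level of all genes. Their summed level was 116.1 to 117.1 log2 with glutamine and 106.6 to 108.8 without it, with Il17a (-6.81) and Il17f (-3.50) lower, Cd3d (0.88) and Cd5 (0.51) higher. The call of Cd5 was lost after quantile normalization (0.13, adjusted p = 0.468), and that of Cd3d without the second array with glutamine or the first or the second glutamine-free array (adjusted p up to 0.0632). Of 10 measured markers of CD8, B, myeloid and NK cells, 2 stood above that level, Cd8b1 (8.10 ± 0.25 to 7.39 ± 0.09, SD, n = 3) and Lyz2 (5.80 ± 0.33 to 4.14 ± 0.14), and both fell. The summed level of those 10 was 43.4 to 44.0 log2 with and 41.6 to 42.3 log2 without glutamine. The part of these cells in the results was not tested, and in bulk RNA fewer cells of a type cannot be told apart from less RNA per cell.

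The promoter sequences of 7 members are shown because these carried the 5 largest falls and the 2 largest rises described here. Each is the 120 bases before the annotated start, 5′ to 3′ on the gene's own strand, from RefSeq on GRCm38.p6. Capitals mark matches on either strand to GCGCANGC, the core of the site of NRF1, or to CCGGAAG, the core of the site of ETS factors such as GABPA. Both factors are known regulators of nuclear genes for mitochondria.
Mrpl45 (chr11:97315596-97315715, plus strand): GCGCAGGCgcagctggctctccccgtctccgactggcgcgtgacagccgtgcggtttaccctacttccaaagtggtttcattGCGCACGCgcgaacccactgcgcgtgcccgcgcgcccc
Mrpl50 (chr4:49521084-49521203, minus strand): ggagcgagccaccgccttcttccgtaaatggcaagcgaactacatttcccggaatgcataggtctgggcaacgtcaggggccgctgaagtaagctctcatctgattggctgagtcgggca
Mrpl47 (chr3:32736756-32736875, minus strand): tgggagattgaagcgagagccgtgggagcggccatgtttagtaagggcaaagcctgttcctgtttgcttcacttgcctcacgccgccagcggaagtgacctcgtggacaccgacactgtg
Mrpl49 (chr19:6057756-6057875, minus strand): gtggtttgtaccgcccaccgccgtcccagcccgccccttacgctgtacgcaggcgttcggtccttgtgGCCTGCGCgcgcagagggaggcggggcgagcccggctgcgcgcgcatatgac
Mrps27 (chr13:99344666-99344785, plus strand): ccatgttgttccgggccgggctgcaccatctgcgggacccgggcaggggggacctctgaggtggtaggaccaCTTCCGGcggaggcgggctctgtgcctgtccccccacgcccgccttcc
Mrpl23 (chr7:142532912-142533031, plus strand): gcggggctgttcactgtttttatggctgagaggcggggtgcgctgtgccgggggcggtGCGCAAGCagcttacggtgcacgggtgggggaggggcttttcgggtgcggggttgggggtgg
Mrpl52 (chr14:54426789-54426908, plus strand): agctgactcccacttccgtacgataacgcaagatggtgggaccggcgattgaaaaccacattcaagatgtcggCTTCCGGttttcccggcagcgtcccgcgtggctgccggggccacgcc
Mrpl45, Mrpl49 and Mrpl23 held the NRF1 letters, Mrps27 and Mrpl52 the ETS letters, and Mrpl50 and Mrpl47 held neither within these 120 bases. Genes that fell and genes that rose thus both held each motif.

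Over windows from 250 bases before to 50 bases after the start, 65 of the 74 genes had a sequence, and the NRF1 letters stood in 21 of them (32.3%), against 9.95% of all 32851 windows and 14.2% of the tested genes with a window. The ETS letters stood in 24 (36.9%), against 8.86% of all windows and 12.3% of the tested genes. The letters AAGATGGC, the core of the YY1 site, stood in 12 (18.5%), against 2.75% of all windows and 3.49% of the tested genes. CACGTG, the E-box bound by MYC, stood in 5 (7.69%), against 7.15% of all windows and 8.95% of the tested genes. Among the genes that fell, 7 of 21 held the NRF1 letters, 4 of 21 the ETS letters and 3 of 21 the YY1 letters. Among those that did not pass the test, these numbers were 12, 18 and 9 of 40. Among the 4 that rose they were 2, 2 and 0. These are counts of letters in a window, and the differences between them were not tested.

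Without glutamine 21 of the 74 genes fell and 4 rose, while 49 did not pass the test (limma, Benjamini-Hochberg adjusted p under 0.05 over all genes). The falls made up 28.4% of the members against 13.0% of all genes tested, and the rises 5.41% against 9.30%. All 74 members stood above the median level of all genes, and among the 15350 genes above it 24.9% fell and 13.7% rose. Among the 12475 genes at or above the level of the lowest member 28.1% fell and 13.5% rose, so the share of falls was close to that of these genes and the share of rises below it. The largest falls were in large subunit genes: Mrpl45, Mrpl50, Mrpl47 and Mrpl49 each fell by more than 1 log2. The changes were otherwise small, as 14 genes fell by 0.5 to 1 log2 and 3 by less, and the median standard error of a change was 0.12 log2.

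The change was negative in 57 of the 74 genes, 36 of them among the 49 that did not pass. The median change was -0.26 log2, against -0.11 over genes at or above the level of the lowest member, -0.059 over genes above the median level and 0.060 over all genes. The 3 arrays without glutamine lay wholly below the 3 with it in 35 genes (47.3%), against 33.9% of the genes above the median level, and wholly above them in 5 (6.76%), against 22.3%. The other 34 genes overlapped. These shares were not computed over all genes or over genes at or above the level of the lowest member, so they are not matched in level. Per array, the median over the 74 genes was 8.97, 8.69 and 8.70 log2 with glutamine and 8.54, 8.54 and 8.33 log2 without it. The first array with glutamine was the highest of its group in 66 of the 74 genes, against 46.7% of genes above the median level. Its median deviation from the group mean was 0.21 log2, against -0.07 and -0.12 for the second and the third. Without glutamine the first array was likewise the highest in 47 genes, against 47.5% of genes above the median level. The median deviations there were 0.07, -0.02 and -0.07 log2 in replicate order. The third array was the lowest of its group in 41 genes with and 47 genes without glutamine. An effect shared by same-numbered arrays was not tested. Without the first array with glutamine 17 of the 74 genes fell and 4 rose, against 9.63% and 6.92% of all genes, and the median change was -0.15. Of the 15350 genes above the median level, 2867 fell and 1756 rose in that fit.

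The counts moved with the scaling and the threshold. After each array was centred on its median, 33 members were lower and 2 higher, against 20.0% and 3.96% of all genes. After quantile normalization 23 were lower and 3 higher, against 17.1% and 4.74%. Of the 15350 genes above the median level, where all 74 members stood, 5480 were lower and 1071 higher after centring. After quantile normalization 4786 of them were lower and 1267 higher. The other shares in this paragraph are over all genes, including those below the level of every member. With a statistic that does not share its spread between genes, 14 members were lower and 1 higher, against 7.88% and 4.61% of all genes. At an adjusted p under 0.01 the counts were 13 and 1, against 6.98% and 2.61%. With a change of at least 1 log2 besides an adjusted p under 0.05 they were 4 and 0, against 2.84% and 1.24%. The 21 genes that fell as deposited were all called after both scalings, and 16 of them in each of the 6 fits that leave out an array.

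**Figure D1:**
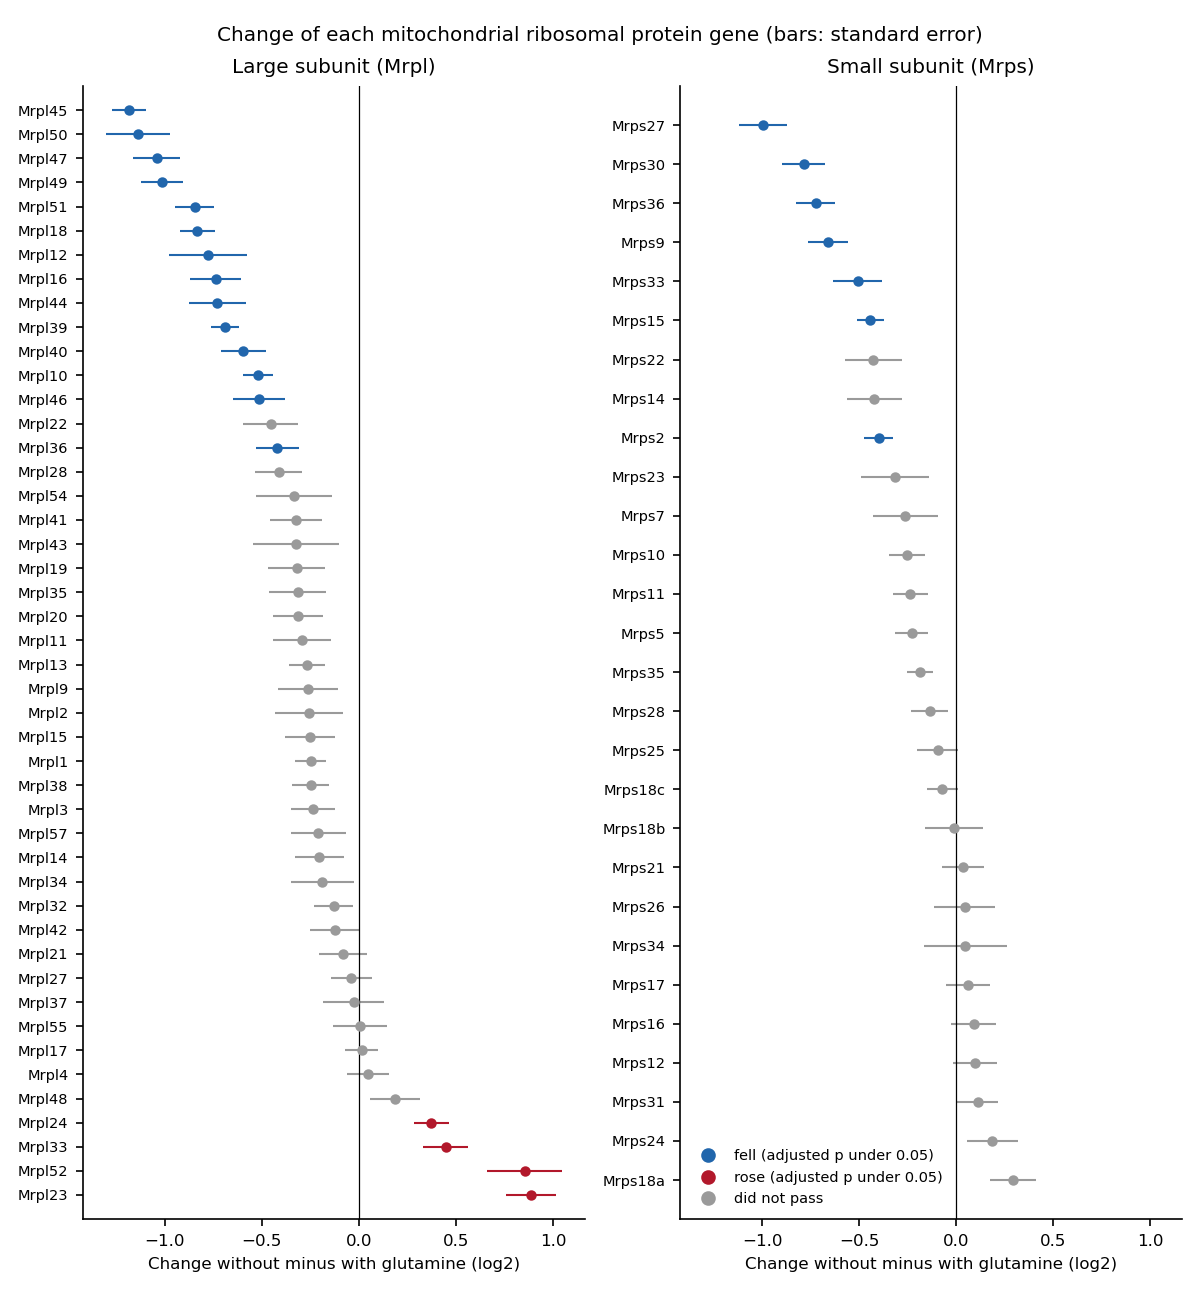
Change of each of the 74 genes (log2, without minus with glutamine) for the large subunit (left) and the small subunit (right), sorted by size. Points are limma estimates over 3 arrays per group and bars 1 standard error; blue genes fell, red genes rose and grey genes did not pass the test. The 4 rises all stood in the large subunit, and most grey points lay left of 0.

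The large subunit showed changes in both directions. Of its 46 genes, 14 fell (30.4%) and 4 rose (8.7%), with a median change of -0.28 log2, against 24.9% and 13.7% of genes above the median level. In the small subunit 7 of 28 genes fell (25%) and 0 rose (limma), so the share of falls was close to the same 24.9%. The median change was -0.21, and at an unadjusted p under 0.05 1 was higher. One small subunit gene, Mrps24, passed as higher when the first array with glutamine was left out (0.34, adjusted p = 0.0341). Per array, the median of the large subunit genes was 8.93, 8.55 and 8.68 log2 with glutamine and 8.37, 8.28 and 8.27 log2 without it, and the groups did not overlap. The median of the small subunit genes was 9.09, 8.90 and 8.79 log2 with and 8.82, 8.82 and 8.83 log2 without glutamine, and the groups overlapped. The medians of the changes differed by -0.072 log2 between the subunits. With each gene first centred on its mean over the 6 arrays, the median of the large minus that of the small subunit genes was 0.13, 0.02 and 0.03 log2 with glutamine and -0.07, -0.04 and -0.09 log2 without it (SD within groups 0.046). These values did not overlap between the groups, and no test of the difference between the subunits was made. Assigning Mrps18a and Mrps30 to the large subunit, where structures place their proteins, gave 15 falls and 4 rises of 48 for the large and 5 falls of 25 for the small subunit, with Mrps36 in neither.

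Genes for proteins found only in mitochondrial ribosomes and genes for proteins with a bacterial counterpart were both among the falls. Of 30 mitochondria-specific genes 11 fell (36.7%) and 1 rose (3.33%), with a median change of -0.32. Of 43 with a bacterial counterpart 9 fell (20.9%) and 3 rose (6.98%), with a median change of -0.25. Among genes above the median level 24.9% fell and 13.7% rose, and among genes at or above the level of the lowest member 28.1% and 13.5%. Within the large subunit the counts were 8 falls (44.4%) and 1 rise (5.56%) of 18 against 6 falls (21.4%) and 3 rises (10.7%) of 28. Within the small subunit 3 of 12 (25%) and 3 of 15 (20%) fell. Without the first array with glutamine the large subunit counts were 7 of 18 and 4 of 28 falls. The difference between the classes was not tested.

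Proteins at the exit of the ribosomal tunnel, through which the new peptide leaves, held both the largest fall and the largest rise. Genes were named partly by the size of their change, so this site is not covered in full. Mrpl17 (0.01, limma adjusted p = 0.919) and Mrpl32 (-0.13, limma adjusted p = 0.396), not described further, did not pass. Mrpl45 encodes the protein that ties the ribosome to the inner membrane at this exit. It read 11.15, 11.17 and 11.12 log2 with glutamine and 10.04, 10.05 and 9.80 log2 without it. The replicates with glutamine lay within 0.05 log2 of each other and the groups stood well apart. Mrpl45 fell by 1.18 (SE 0.09, limma adjusted p = 0.000453), the lowest adjusted p of the 74 genes.

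Mrpl47, the counterpart of the bacterial exit protein L29, read 9.13, 8.71 and 8.88 log2 with and 7.99, 7.83 and 7.78 log2 without glutamine, and fell by 1.04 (SE 0.12, limma adjusted p = 0.00228). Mrpl23, the counterpart of the exit protein L23, moved the other way. It read 6.89, 6.76 and 6.68 log2 with and 7.92, 7.61 and 7.47 log2 without glutamine, and rose by 0.89 (SE 0.13, limma adjusted p = 0.00458). No array without glutamine reached down to those with it. The row of its pseudogene Mrpl23-ps1, left out of the members, rose as well, from 10.82 ± 0.41 to 12.19 ± 0.21 log2 (limma adjusted p = 0.0061). Transcripts of the gene and of the pseudogene may therefore not be separable on the array, which was not tested.

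Mrpl24, the counterpart of the exit protein L24, read 10.67, 10.45 and 10.41 log2 with and 10.94, 10.83 and 10.88 log2 without glutamine. It rose by 0.37 (SE 0.09, limma adjusted p = 0.0267), but it passed in only 1 of the 6 fits that leave out an array, the one without the first array with glutamine, with adjusted p up to 0.0898, and not after centring (0.22, adjusted p = 0.15). Mrpl22, whose bacterial counterpart lines the same tunnel, changed by -0.45 and did not pass (limma adjusted p = 0.0633), although its groups did not overlap.

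The stalk of the large subunit, which recruits translation factors, was represented by 3 genes. Mrpl12 encodes the mobile stalk protein, which is also known to bind the mitochondrial RNA polymerase. It read 8.70, 8.06 and 8.16 log2 with and 7.65, 7.71 and 7.23 log2 without glutamine, with a wide spread in both groups. Mrpl12 fell by 0.78 (SE 0.20, limma adjusted p = 0.0363), and the call was lost when any array but the second with glutamine was left out (adjusted p up to 0.0977). Mrpl10, the protein that holds the stalk to the body, read 11.86, 11.81 and 11.65 log2 with and 11.26, 11.24 and 11.26 log2 without glutamine. It fell by 0.52 (SE 0.08, limma adjusted p = 0.00527). Mrpl11, at the stalk base, read 8.71, 8.18 and 8.21 log2 with and 8.14, 8.10 and 7.98 log2 without glutamine. Its change of -0.29 did not pass (limma adjusted p = 0.205), and its first array with glutamine stood 0.5 log2 above the rest.

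**Figure D2:**
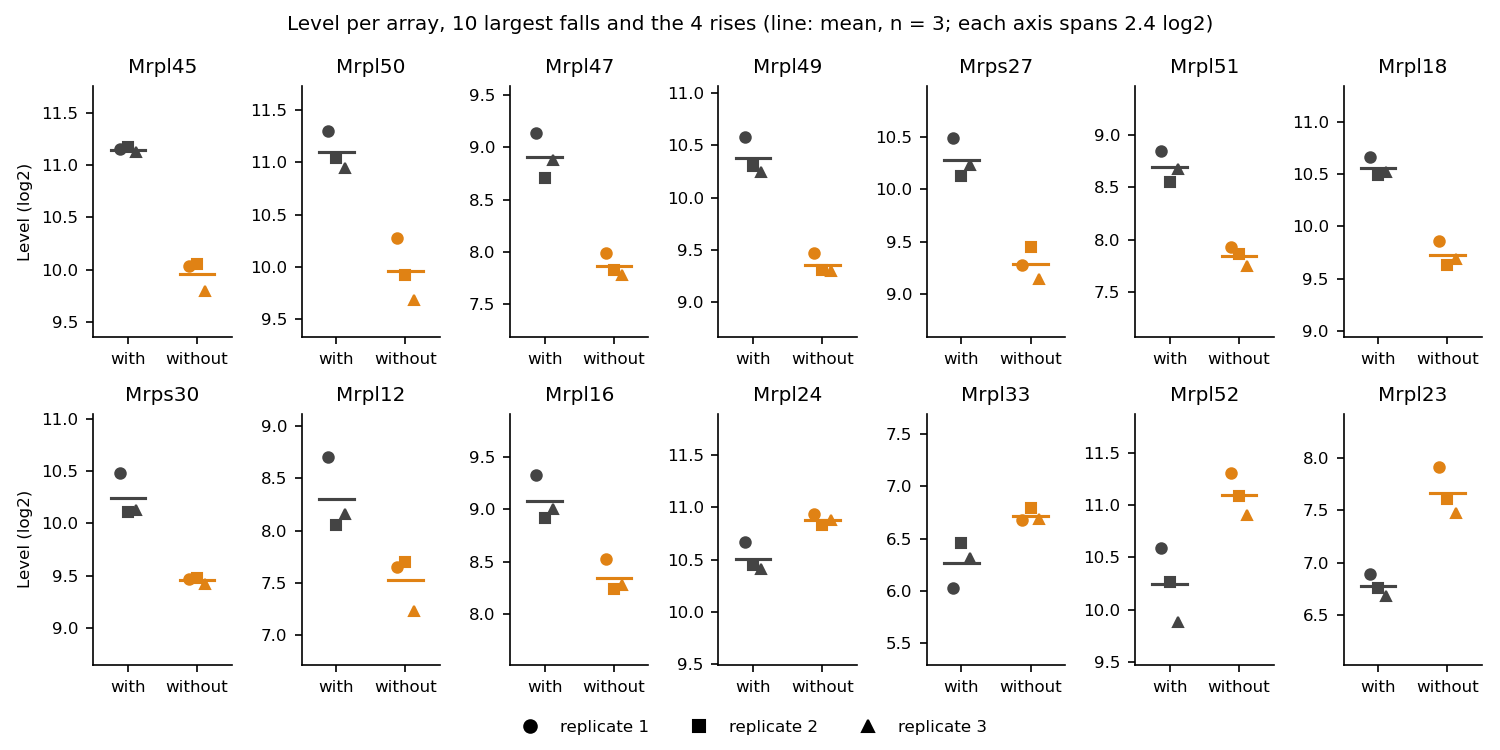
Level (log2) on each array for the 10 genes with the largest falls and for the 4 genes that rose, with glutamine (grey) and without it (orange). Symbols mark the replicate numbers, which were not taken as pairs, lines the means (n = 3), and every panel spans 2.4 log2. In each of the 14 genes the 2 groups did not overlap, and the first replicate with glutamine (circle) was often the highest of its group.

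The central protuberance, a part of the large subunit that touches the small subunit and the tRNAs, included Mrpl18, Mrpl38, Mrpl40, Mrpl46 and Mrpl48. The site is not covered in full, and members described elsewhere, fallen or risen, may belong to it. Mrpl18 read 10.66, 10.49 and 10.52 log2 with and 9.86, 9.63 and 9.68 log2 without glutamine, and fell by 0.83 (SE 0.09, limma adjusted p = 0.00168). Mrpl40 fell by 0.60 from 7.77 ± 0.21 log2 and Mrpl46 by 0.51 from 7.47 ± 0.24 log2 (SD, n = 3). The call of Mrpl46 held only without the third array with glutamine among the fits that leave out an array (adjusted p 0.0153 to 0.119). Mrpl38 (-0.25) and Mrpl48 (0.19) did not pass. Mrpl58, the former Ict1, encodes a peptide-releasing protein that rescues stalled ribosomes and is built into this region. Its row matched only after a symbol update and is not counted among the 74. It read 9.49, 9.25 and 9.07 log2 with and 8.92, 8.81 and 8.78 log2 without glutamine, a fall of 0.43 (SE 0.12, limma adjusted p = 0.0405) that held only without the third array with glutamine (adjusted p 0.118 at most).

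Of the 18 mitochondria-specific genes of the large subunit, 8 fell, 1 rose and 9 did not pass, and the others that passed, besides Mrpl45, Mrpl40 and Mrpl46, are given here. Mrpl50 read 11.30, 11.05 and 10.95 log2 with and 10.27, 9.92 and 9.69 log2 without glutamine, and fell by 1.14 (SE 0.17, limma adjusted p = 0.00489). Mrpl49 read 10.57, 10.30 and 10.25 log2 with and 9.47, 9.31 and 9.30 log2 without glutamine, and fell by 1.02 (SE 0.11, limma adjusted p = 0.00154). In both, the lowest array with glutamine stayed more than 0.5 log2 above the highest without it. Mrpl51 read 8.85, 8.55 and 8.67 log2 with and 7.93, 7.86 and 7.75 log2 without glutamine, and fell by 0.85 (SE 0.10, limma adjusted p = 0.00221). Mrpl44, whose protein has the fold of an RNase III enzyme, read 7.33, 7.17 and 6.84 log2 with and 6.58, 6.31 and 6.27 log2 without glutamine. It fell by 0.73 (SE 0.15, limma adjusted p = 0.0151), a call lost without the second array with glutamine or the second or the third without it (adjusted p up to 0.0606). Mrpl39 fell by 0.69 from 11.94 ± 0.03 to 11.25 ± 0.09 log2. Mrpl52 went the other way: it read 10.59, 10.27 and 9.88 log2 with and 11.31, 11.09 and 10.90 log2 without glutamine. It rose by 0.85 (SE 0.19, limma adjusted p = 0.0221), with a call lost without the second array with glutamine or the first or the second without it (adjusted p up to 0.0724).

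Among core proteins that the large subunit shares with bacteria, Mrpl16, near the catalytic centre, read 9.33, 8.92 and 9.0 log2 with and 8.52, 8.24 and 8.27 log2 without glutamine. It fell by 0.74 (SE 0.13, limma adjusted p = 0.0103). Mrpl3, a core protein whose bacterial counterpart reaches toward the same centre, read 9.79, 9.71 and 9.63 log2 with and 9.66, 9.51 and 9.25 log2 without glutamine. Its groups overlapped and its change of -0.24 did not pass (limma adjusted p = 0.185). Mrpl36 fell by 0.42 from 7.07 ± 0.20 log2, a call that held only without the third array with glutamine (adjusted p 0.0161 to 0.111). Mrpl33 read 6.03, 6.46 and 6.32 log2 with and 6.68, 6.79 and 6.68 log2 without glutamine and rose by 0.45 (SE 0.12, limma adjusted p = 0.0376). Its row lists 3 gene IDs, the call held only without the second array with glutamine (adjusted p up to 0.119), and it was lost after quantile normalization (adjusted p = 0.0929) and centring (adjusted p = 0.125).

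In the small subunit, the largest fall was that of Mrps27, which encodes a pentatricopeptide repeat protein, a class that binds RNA. It read 10.49, 10.13 and 10.23 log2 with and 9.28, 9.45 and 9.14 log2 without glutamine, and fell by 0.99 (SE 0.12, limma adjusted p = 0.00283). Mrps30 read 10.48, 10.11 and 10.13 log2 with and 9.47, 9.48 and 9.42 log2 without glutamine, and fell by 0.79 (SE 0.11, limma adjusted p = 0.00449). Its protein, despite the name, sits in the large subunit. Mrps36 fell by 0.72 from 7.69 ± 0.17 to 6.97 ± 0.04 log2. Its protein is known as a subunit of the alpha-ketoglutarate dehydrogenase complex of the TCA cycle rather than of the ribosome. The rows of its pseudogenes fell too, Mrps36-ps1 by 0.97 and Mrps36-ps2 by 0.91, so these transcripts may not be separable.

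Of the small subunit proteins shared with bacteria, Mrps9, Mrps15 and Mrps2 fell. Mrps9 fell by 0.66 from 9.98 ± 0.05 log2, Mrps15 by 0.44 from 10.90 ± 0.07 log2 and Mrps2 by 0.40 from 7.60 ± 0.10 log2 (SD, n = 3). Mrps33, specific to mitochondria, fell by 0.51 from 9.66 ± 0.19 log2, a call that held only without the third array with glutamine (adjusted p 0.0206 to 0.0916). Mrps12, the counterpart of the bacterial decoding protein S12, read 7.61, 7.24 and 7.25 log2 with and 7.43, 7.48 and 7.48 log2 without glutamine. Its groups overlapped, and its change of 0.09 did not pass (limma adjusted p = 0.577). Mrps7, a protein of the head near the tRNA exit, read 9.35, 8.87 and 8.68 log2 with and 8.75, 8.72 and 8.65 log2 without glutamine (-0.26, limma adjusted p = 0.306). Mrps22, known from human mutations that impair small subunit assembly, read 9.87, 9.50 and 9.44 log2 with and 9.38, 9.14 and 8.99 log2 without glutamine. Its groups did not overlap, but its change of -0.43 did not pass (limma adjusted p = 0.0871).

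The 3 genes below were nearest to no change among the higher-reading members. Mrps18b read 11.23, 10.67 and 10.85 log2 with and 10.99, 10.78 and 10.94 log2 without glutamine, and changed by -0.01 (SE 0.15). Mrpl37 changed by -0.03 (10.02 ± 0.31 to 10.00 ± 0.10 log2) and Mrps21 by 0.03 (10.05 ± 0.19 to 10.08 ± 0.08 log2). A further row named both Mrps18b and Gm16279 and moved up by 0.25, against -0.01 for the row of Mrps18b alone. Rows that name Mrpl53, Mrpl30 or Mrps6 together with another gene changed by 0.08, -0.03 and 0.17 log2 and were not tested. The remaining members that did not pass lay between -0.45, the change of Mrpl22, and 0.29, that of Mrps18a.

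Across the 74 genes the change was only weakly related to the level (Pearson r = -0.139 over 74 genes of the same 6 arrays, a description). Genes that fell were found over most of the range of levels, 12 among the 37 higher-reading and 9 among the 37 lower-reading members.

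**Figure D3:**
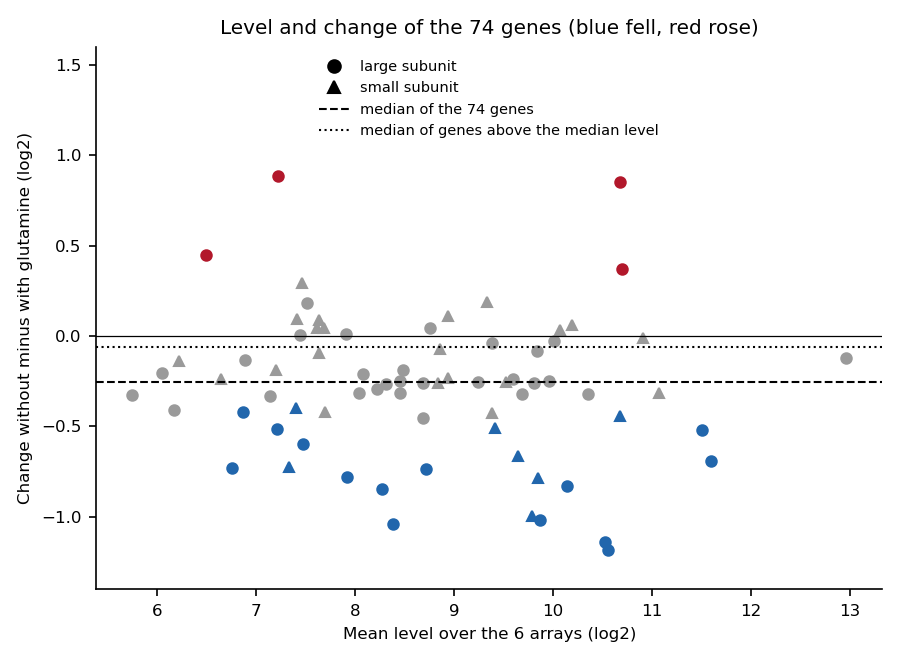
Mean level over the 6 arrays (log2) against the change without minus with glutamine (log2) for the 74 genes, circles for the large and triangles for the small subunit. Blue genes fell, red genes rose and grey genes did not pass; the dashed line is the median of the 74 genes (-0.26) and the dotted line that of all genes above the median level (-0.059). Falls and genes that did not pass occurred at low and high levels alike.

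Many of these genes start back to back with another gene, so that 1 promoter region lies between them. A partner on the other strand within 1000 bases of the start was found for 26 of the 65 members with a promoter window. Of the partners 25 were tested. Of these 10 fell (40%) and 2 rose (8%), against 24.9% and 13.7% of genes above the median level and 13.0% and 9.30% of all genes. The partners were taken at any level, so neither share is a matched one, and no share over other back-to-back pairs was computed. Mrpl46, counted among the partners that fell, is itself a member. The partners of genes that fell did not always fall with them. Mrpl50 and Zfp189 start 93 bases apart, and Zfp189 changed by -0.07 (limma adjusted p = 0.716). Mrpl47 and Ndufb5, a complex I subunit gene, start 308 bases apart, and Ndufb5 changed by -0.02 (adjusted p = 0.89). Mrpl49 and Fau, a cytosolic ribosomal protein gene, start 192 bases apart, and Fau changed by 0.53 (adjusted p = 0.14). In contrast Mrpl51 fell together with Ncapd2 (-1.01, adjusted p = 0.00389), a condensin subunit gene, Mrpl18 with the chaperonin gene Tcp1 (-0.52, adjusted p = 0.0125), Mrpl40 with the histone chaperone gene Hira (-0.45, adjusted p = 0.013) and Mrps27 with Ptcd2 (-0.47, adjusted p = 0.0299). Mrpl46 and Mrps11 share a start region of 42 bases; Mrpl46 fell and Mrps11 (-0.24) did not pass. Mrps12, which did not pass, starts 147 bases from Sars2, the mitochondrial seryl-tRNA synthetase gene, which fell by 0.49 (adjusted p = 0.0137). Some partners of members that did not pass were called themselves: Ska3, the partner of Mrpl57, changed by -1.80, Eme1, that of Mrpl27, by -1.03, and Pnpla7, that of Mrpl41, by 0.77.

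Mitoribosomal proteins whose genes carry other symbols were measured for 4 of 5. Dap3, a GTP-binding protein of the small subunit, read 10.05, 9.88 and 9.71 log2 with and 9.59, 9.53 and 9.44 log2 without glutamine and fell by 0.36 (SE 0.10, limma adjusted p = 0.0469), a call that held only without the third array with glutamine (adjusted p up to 0.128). Ptcd3, the small subunit protein at the mRNA entry, fell by 0.62 from 12.12 ± 0.06 log2 (limma adjusted p = 0.00629). Chchd1 (-0.17) and Gadd45gip1 (-0.25) did not pass.

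Of 26 genes listed as assembly factors of the mitochondrial ribosome, 5 fell (19.2%) and 2 rose (7.69%), against 13.0% and 9.30% of all genes and 24.9% and 13.7% of genes above the median level. The median change was -0.16, and 3 fell without the first array with glutamine or the second or the third glutamine-free array. Eral1, a GTPase that binds the small ribosomal RNA, fell by 0.60, as did Noa1, a GTPase needed for mitochondrial translation (0.60), and the pseudouridine synthase gene Rpusd4 fell by 0.51. Ddx28, an RNA helicase of large subunit assembly, rose from 7.30 ± 0.24 to 8.22 ± 0.19 log2 (0.93, limma adjusted p = 0.00732). The other rise was that of Mettl5 (0.47), an enzyme known to modify RNA of the cytosolic ribosome. Its call was lost without the second array with glutamine or the first or the third without it (adjusted p up to 0.0566).

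Translation factors of mitochondria fell in 8 of 14 cases (57.1%, against 24.9% of genes above the median level) and rose in 1 (7.14% against 13.7%), with a median change of -0.38. Leaving out an array gave 5 to 8 falls, with 5 without the second glutamine-free array. Taco1, a translational activator of COX1, fell by 0.85 and Gfm1, the elongation factor that moves the ribosome along, by 0.79, from 10.97 ± 0.07 to 10.18 ± 0.16 log2 (limma adjusted p = 0.00269). Tufm, which brings tRNAs to the ribosome, fell by 0.71, with a call lost without the first or the second array with glutamine or the second or the third without it (adjusted p up to 0.117). Mtrf1, of the release factor family, fell by 0.70. Mrrf, the factor that recycles the ribosome after termination, rose from 9.43 ± 0.19 to 10.09 ± 0.09 log2 (0.66, limma adjusted p = 0.00784). Of 19 genes for mitochondrial aminoacyl-tRNA synthetases and the related amidotransferase 9 fell (47.4%, against 24.9% of genes above the median level) and 0 rose (1 higher at an unadjusted p under 0.05), with a median change of -0.14. Leaving out an array gave 5 to 8 falls, with 5 without the second glutamine-free array. Iars2 (-0.74), Yars2 (-0.63), Tars2 (-0.52) and Sars2 (-0.49) led, and Sars2 was not called without the second array without glutamine (adjusted p = 0.0546).

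Of 18 factors of mitochondrial DNA upkeep and transcription 4 fell and 0 rose (2 higher at an unadjusted p under 0.05), with a median change of -0.18. The falls made up 22.2%, close to the 24.9% of genes above the median level. Leaving out an array gave 2 to 6 falls, with 2 without the second glutamine-free array and 6 without the third array with glutamine. Pnpt1 (-0.87) and Supv3l1 (-0.68) encode the RNA-degrading enzyme and helicase of the mitochondrial degradosome. Tfam, which packages mitochondrial DNA and starts its transcription, fell by 0.55, a call lost without any 1 of the 3 glutamine-free arrays (adjusted p up to 0.0971). Ssbp1 fell by 0.45, and was not called without the second array without glutamine (adjusted p = 0.06). The measured RNAs that the mitochondrial ribosome is built on or translates showed no call, and its protein products were not measured. The RNA of its small subunit, mt-Rnr1, read 19.56 ± 0.02 and 19.54 ± 0.06 log2. That is near the highest value of each array, where a change may not be measurable. Of 5 measured protein-coding genes of the mitochondrial genome 0 passed (limma), and 1 was higher at an unadjusted p under 0.05, with a median change of 0.087. COX1 was the gene whose groups did not overlap, at 17.49 ± 0.18 and 17.92 ± 0.22 log2 (limma adjusted p = 0.0716), and it was picked with its values known. ND3 (0.09) and ND2 (-0.05) were the 2 highest-reading ones.

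Of 9 measured regulators of nuclear genes for mitochondria 3 fell (33.3%, against 24.9% of genes above the median level) and 0 rose (1 higher at an unadjusted p under 0.05). Leaving out an array gave 1 to 3 falls, with 1 without the second or the third glutamine-free array. Gabpa fell from 9.74 ± 0.03 to 9.24 ± 0.11 log2 (-0.50, limma adjusted p = 0.00589). Nrf1 fell from 8.45 ± 0.13 to 7.94 ± 0.13 log2 (-0.50, limma adjusted p = 0.0162), a call lost without the second or the third array without glutamine (adjusted p up to 0.0567). Yy1 fell by 0.30, with a call that held only without the third array with glutamine (adjusted p up to 0.138). Myc, the gene of the E-box factor, changed by -0.09 and did not pass (limma adjusted p = 0.453).

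Ribosomal protein genes of the cytosol did not share the direction of the mitochondrial ones. Of 40 measured, 0 fell and 19 rose (limma; 0 and 26 at an unadjusted p under 0.05), with a median change of 0.35. Only genes with a row of their own were counted, so the family is not covered in full, and the 40 include Rpl3l, Rpl10l, Rpl39l, Rpl6l and Rpl32l. Several read above 16 log2, such as Rpl4 and Rpl12, where the scale is uncertain. The rises made up 47.5%, against 13.7% of genes above the median level. Rps4x rose from 13.68 ± 0.28 to 14.75 ± 0.11 log2 (1.08, limma adjusted p = 0.00386), Rpl37a by 1.06, Rpl31 by 0.90 and Rpl6l by 0.78. The count of rises was 13 after quantile normalization, 8 after centring and 9 to 18 when 1 array was left out: 9 without the second array with glutamine, and 11 without the first or the second glutamine-free array. The count of falls was 0 in each of these. Multicopy pseudogenes of this family can share probes with the genes. The difference between the 2 families of genes was not tested.

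Nuclear genes for subunits of the respiratory chain and ATP synthase fell in 20 of 82 cases and rose in 5, with a median change of -0.17, against 21 and 4 of 74 and -0.26 for the mitochondrial ribosomal protein genes. The shares of 24.4% and 6.1% compare with 24.9% and 13.7% of genes above the median level. Leaving out the first or the second array with glutamine gave 10 or 11 falls, leaving out the second or the third glutamine-free array 8 or 10, and the widest range was 8 to 25. Sdhd of complex II fell by 1.34 and Ndufv3 of complex I by 0.80, while Cox6a2, a complex IV subunit best known from muscle, rose from 4.45 ± 0.41 to 7.02 ± 0.37 log2 (2.57, limma adjusted p = 0.00122) and Ndufb11 rose by 0.84. The call of Ndufv3 held only without the third array with glutamine (adjusted p up to 0.109), and that of Ndufb11 only without the first or the third (adjusted p up to 0.0701).

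**Figure D4:**
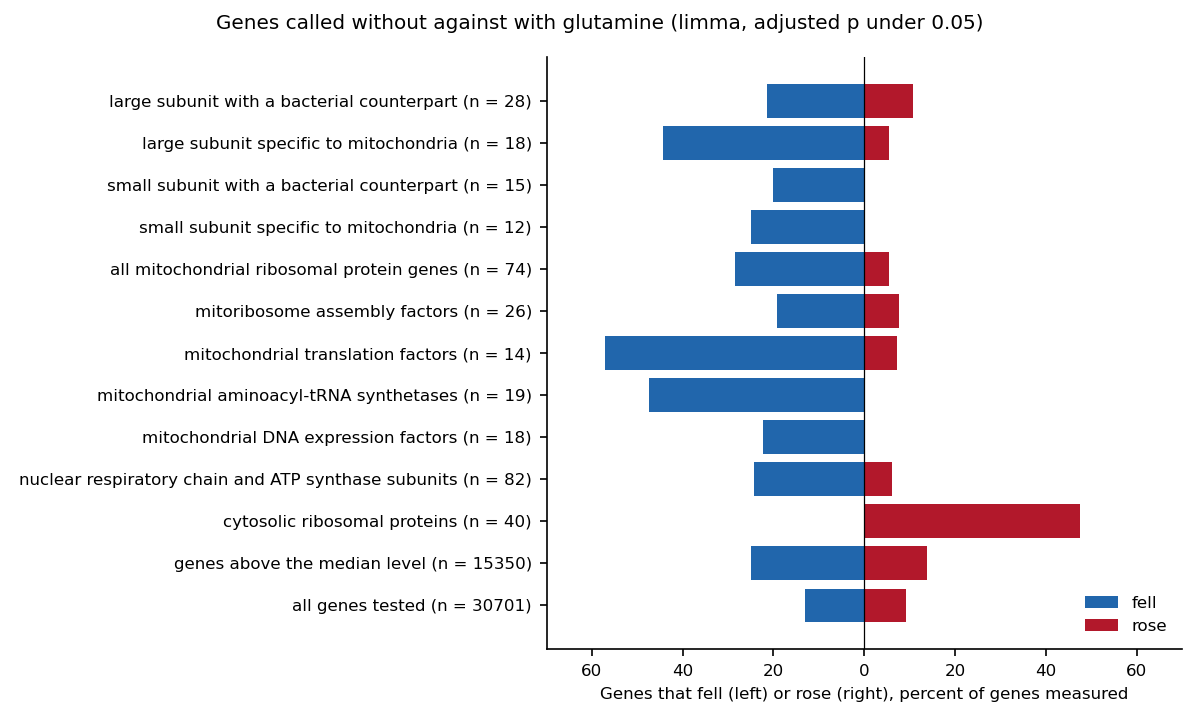
Percent of measured genes that fell (left, blue) or rose (right, red) without glutamine, by group of genes (limma, adjusted p under 0.05 over all genes tested); n is the number measured. The mitochondrial ribosomal protein genes (28.4% fell, 5.41% rose) lay near the genes above the median level on the left (24.9%), and the cytosolic ribosomal protein genes showed rises only.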

How the data were processed

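RNA of 6 cultures was measured on Affymetrix GeneChip arrays, 1 array per culture. The authors deposited log2 expression values for each row. Per the submitters' processing notes, the authors used RMA and version 4.0 of the Transcriptome Analysis Console. RMA corrects background, normalizes and summarises probes; which options, annotation and build were set is not given in the sources used here. Of 65956 rows, 31258 name 1 gene in the platform annotation, 1492 name several and 33206 are unnamed here. Symbols were updated through a RefSeq gene table of GRCm38.p6, and the row with the highest mean per symbol was kept. No dim genes were filtered out. Each of 30701 genes was tested with limma 3.58.1 (lmFit, eBayes, two-sided, no covariate) in R 4.3.3, with Benjamini-Hochberg adjustment over all genes and a threshold of 0.05. A change is the mean without minus the mean with glutamine, and errors are SD over n = 3 arrays unless SE is named. The number of arrays limits the precision.

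The members, the 12 gene lists and the tests were chosen with earlier results of these data known, so counts over lists carry no test of their own and are set beside the shares over all genes or over genes above the median level. Single genes were named by a rule: the 10 largest falls and all rises among members that passed, 11 fixed genes, the 3 higher-reading members nearest to no change, and up to 4 genes per other list. Classes of proteins follow the usual nomenclature of the mitochondrial ribosome. Motifs were counted on both strands of RefSeq promoter windows (GRCm38.p6). The fit was tested on simulated data. Alternatives were other scalings, filters, statistics and thresholds, other treatment of rows, the replicate number as a blocking term, and fits that omit 1 array. Over all genes, same-numbered arrays of the 2 groups did not deviate together (correlations 0.066, -0.234 and 0.276), so the numbers were not taken as pairs. The labels do not say whether they are. Over the 74 members the median deviations from the group mean followed the same replicate order in both groups. Figures were drawn with matplotlib 3.10.9.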

Additional observations from a re-analysis of the deposited data

How the results depend on the processing

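Among the members, 21 of 21 falls kept their call after quantile normalization and after centring each array on its median, and 16 kept it in all 6 fits that leave out an array. Of the 4 rises, 3 kept it after quantile normalization, 2 after centring, and 1, Mrpl23, in all 6. After centring, 33 members were lower (44.6%, against 20.0% of all genes) and 2 higher (2.7%, against 3.96%), both of the large subunit. In that fit 13 small subunit genes were lower, the median change was -0.41, and 6128 of all genes were lower and 1216 higher. Of the 15350 genes above the median level, where all 74 members stood, 5480 were lower and 1071 higher. After quantile normalization 1455 of all genes were higher. The unmoderated statistic gave 14 lower members and 1 higher, with 8 lower and 1 higher in the large subunit, and 2418 lower and 1415 higher genes in all. At an adjusted p under 0.01, 13 members were lower and 1 higher, with 8 and 1 in the large subunit, and 2143 and 801 in all. With a change of at least 1 log2 as well, 4 members were lower and 0 higher, all 4 in the large subunit and 0 lower in the small, and 872 and 381 in all. Leaving out an array gave 16 to 22 lower and 1 to 4 higher members, 1 to 3 higher in the large and 0 to 1 in the small subunit, a median change of -0.32 to -0.15, a large minus small difference of -0.15 to -0.049, and 2666 to 4012 lower and 1395 to 2490 higher genes in all. The lowest counts over all genes came without the second glutamine-free array. The count of 16 lower members came without the second or the third glutamine-free array, and that of 1 higher member without the first or the second. The replicate block gave 21 lower and 4 higher members, and same-numbered arrays did not correlate best with each other throughout. The T helper marker Cd3e, with a change of 0.00, had -0.42 after quantile normalization (adjusted p = 0.0328), and the cause was not tested. Over all members and alternative fits, 1038 values kept their direction and side of the threshold, 50 lost a call, 22 gained one and 0 turned. Values above 16 log2 and unequal array medians leave the scale uncertain.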
